A study of Mus musculus with 9 samples.

Results

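The M-CSF receptor gene Csf1r and 8 genes for transcription factors of the macrophage lineage (Spi1, Cebpa, Cebpb, Maf, Runx1, Irf8, Klf4 and Zeb2) were followed in mouse bone marrow-derived macrophages (BMDM) exposed to exosomes, small vesicles that cells release. They were taken as a list of names, matched to the Ensembl IDs of the count table through the GENCODE M21 annotation, and make up 9 of the 55536 genes listed. All 9 had enough counts to be tested. The mRNA was sequenced in 9 libraries, in 3 groups of 3. The first group received EKO-BMDM-exo, exosomes from BMDM of ApoE-deficient mice, the second received WT-BMDM-exo, exosomes from BMDM of wild-type mice, and the third received PBS, the vehicle. The recipient cells of every group were wild-type. They were grown from bone marrow of male mice aged 6 to 12 weeks with recombinant murine M-CSF at 25 ng/mL, given every other day for 6 days. Exosomes were then added at 2e+09 particles/mL, and RNA was collected after 18 hours. The genotype named in a group is that of the exosome donors, and ApoE, the lipid carrier protein, was not deleted in any recipient. The design calls the replicates biological, but no source used here says whether they came from separate mice or received separate exosome preparations. The p-values therefore measure the spread between these libraries, which may be technical.

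M-CSF is the growth factor on which most macrophages depend for survival and proliferation. It binds the receptor tyrosine kinase encoded by Csf1r, which passes the signal on through Src family kinases, PI3 kinase and the ERK cascade. PU.1, the ETS factor encoded by Spi1, is required for myeloid development and binds the Csf1r promoter and an enhancer in its gene together with C/EBP and RUNX factors. IRF8 binds DNA with PU.1 and directs progenitors towards monocytes and macrophages, C/EBPα commits progenitors to the myeloid lineage, and C/EBPβ acts in monocyte survival and in inflammatory and emergency responses. MAF, the c-Maf protein, restrains proliferation of mature macrophages and helps maintain their identity. KLF4 acts in monocyte differentiation and alternative activation, and ZEB2 holds resident macrophages to their tissue identity.

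Each library held 28581306 to 35929596 counts and 17150 to 18680 detected genes. On principal component 1, with 15.2% of the variance, replicate 3 of wild-type exosomes stood apart at 57.5, the others lying between -16.8 and 3.43. Component 2, with 15.1%, placed the replicate 2 libraries of both exosome groups farthest from zero, at 38.0 for ApoE-deficient and -45.4 for wild-type exosomes. All 9 markers on a macrophage list were expressed, and their summed level was 17424 to 18222 CPM (counts scaled to the library total) under ApoE-deficient exosomes, 17496 to 18053 under wild-type exosomes and 18653 to 19618 in PBS. Most of this sum was Lyz2, with means of 13104, 12872 and 14051 CPM in the same order. Cd68 went the other way, with means of 2605, 2666 and 2497 CPM. Of the 9 markers 6 fell past the threshold and none rose under ApoE-deficient exosomes against PBS, where 2.41% of all genes tested fell. Under wild-type exosomes 5 fell and 1, Cd68, rose, where 2.18% of all genes tested fell. Markers of other cells were low. The neutrophil list summed to 169 to 184 CPM under ApoE-deficient exosomes, 190 to 201 under wild-type exosomes and 195 to 201 in PBS, most of it from Csf3r. The monocyte list summed to 9.12 to 14.0, 13.4 to 17.0 and 14.6 to 18.1 CPM in the same groups. Cd8a, Nkg7, Cd79a, Hba-a1, Gata1 and 5 of 6 mast cell and basophil markers were at 0 in all libraries. The stromal list summed to 5.85 to 25.2 CPM under ApoE-deficient exosomes, 16.9 to 29.9 under wild-type exosomes and 9.08 to 64.6 in PBS. Its highest library was replicate 3 of PBS, with Col1a1 at 35.8 CPM and Col1a2 at 25.6 CPM. The osteoclast list summed to 152 to 164, 153 to 159 and 155 to 160 CPM in the same order, most of it from Nfatc1. No gene of the lists for other cell types that was tested passed the threshold in any comparison.

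To show the control regions of the transcription factor genes, windows of 300 bases, 250 before to 50 after an annotated start, were taken from RefSeq (build GRCm38.p6). Entries were found for 6 of the 9 genes, in 11 windows; Csf1r, Spi1 and Maf had none. On both strands 7 motifs were searched, which are the PU.1 core GAGGAA, the C/EBP site TTNCNNAA, the RUNX site TGTGGT, the IRF site (GAAA, any 2 bases, GAAA), the ETS-IRF composite (GGAA, any 2 bases, GAAA), the MAF element TGCTGAC and the ZEB site CACCTG. The IRF and composite patterns can overlap. Among all 32851 windows of this length, 28.3% held the PU.1 core, 40.7% the C/EBP site, 16.8% the RUNX site, 3.44% the IRF site, 2.72% the composite, 4.67% the MAF element and 20.2% the ZEB site. Below are the upstream-most windows of Runx1 and Zeb2, which held the most matches of any member, and of Irf8, whose libraries lay below PBS under both exosomes. Each is written 5′ to 3′ on the strand of its gene, with matches in capitals. The Runx1 window is chr16:92826025-92826324 on the minus strand, the Zeb2 window is chr2:45117393-45117692 on the minus strand, and the Irf8 window is chr8:120736108-120736407 on the plus strand.
Runx1: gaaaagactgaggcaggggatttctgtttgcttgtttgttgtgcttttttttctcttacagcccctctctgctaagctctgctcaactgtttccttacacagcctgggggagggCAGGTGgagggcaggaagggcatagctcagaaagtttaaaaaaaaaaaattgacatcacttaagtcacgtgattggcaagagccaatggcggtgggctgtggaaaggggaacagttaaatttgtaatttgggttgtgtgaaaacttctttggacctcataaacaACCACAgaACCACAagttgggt
Zeb2: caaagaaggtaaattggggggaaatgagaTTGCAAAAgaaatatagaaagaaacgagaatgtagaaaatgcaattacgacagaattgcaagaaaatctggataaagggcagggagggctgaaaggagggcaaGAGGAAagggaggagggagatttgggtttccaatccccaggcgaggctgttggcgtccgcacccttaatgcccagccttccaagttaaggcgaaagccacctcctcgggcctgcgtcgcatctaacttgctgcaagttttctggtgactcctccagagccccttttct
Irf8: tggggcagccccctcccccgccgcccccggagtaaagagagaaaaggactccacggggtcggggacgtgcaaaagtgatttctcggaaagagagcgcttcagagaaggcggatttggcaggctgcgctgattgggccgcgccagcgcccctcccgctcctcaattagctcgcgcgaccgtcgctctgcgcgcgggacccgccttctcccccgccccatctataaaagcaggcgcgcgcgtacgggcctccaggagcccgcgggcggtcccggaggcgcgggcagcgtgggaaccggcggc
In the Runx1 window the RUNX site occurred at positions 29 and 37 after the start, both on the opposite strand, and the ZEB site at -136. The Zeb2 window held the C/EBP site at -221 and the PU.1 core at -118. The PU.1 core also occurred in the other 3 Zeb2 windows, of which windows 2 and 3 overlap, and in the downstream Runx1 window at -46. The first Irf8 window held none of the 7 patterns, and the second held the ZEB site at -205. The windows of Cebpa, Cebpb and Klf4 held none. These are matches of letters and not measured binding.

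Per exon length the 9 genes spanned a wide range of levels. Csf1r averaged 626 RPKM (CPM per kilobase of the union of its exons) across the 9 libraries, a level above that of 99.7% of genes tested, with a range of 563 to 726 RPKM. Spi1 followed at 153 RPKM and Cebpa at 89.1 RPKM, and the ranges of these 3 genes did not overlap. Maf at 49.6 RPKM and Irf8 at 44.0 RPKM overlapped in range, as did Zeb2 at 37.3 RPKM and Cebpb at 35.5 RPKM. Runx1 stood below them at 19.4 RPKM. Klf4 was the lowest at 2.46 RPKM, with a range of 1.25 to 3.12 RPKM, a level above that of 39.5% of genes tested. Apart from those 2 pairs, no neighbours in this order overlapped in range.

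**Figure D1:**
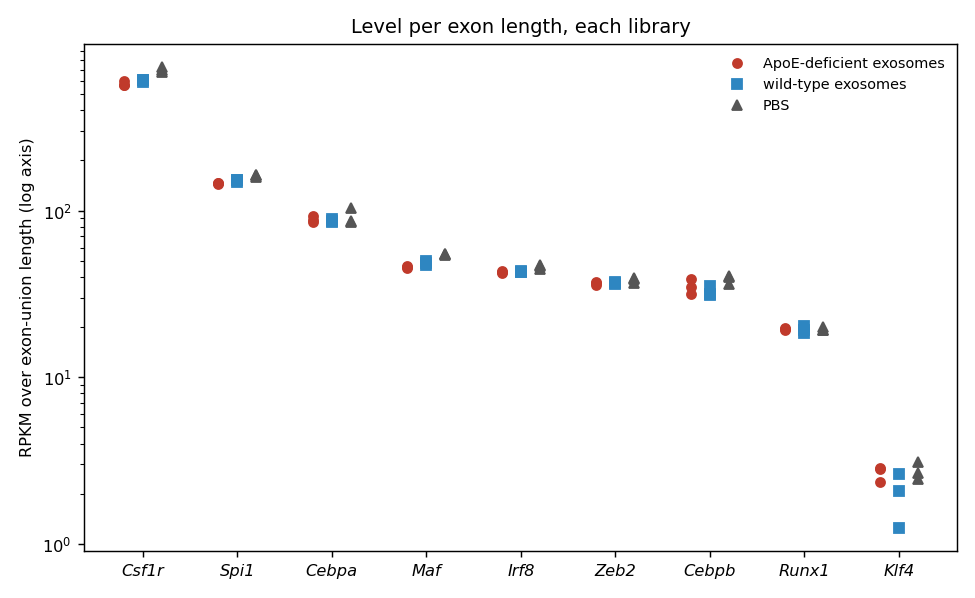
Level per exon length (RPKM, log axis) of the 9 genes in each library, from the highest mean to the lowest. Red circles are libraries with ApoE-deficient exosomes, blue squares wild-type exosomes and grey triangles PBS, 3 each. Csf1r lies between 563 and 726 RPKM and Klf4 between 1.25 and 3.12 RPKM.

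Against PBS, 3 of the 9 genes fell past the threshold under ApoE-deficient exosomes and none rose. Csf1r fell by 17.9%, Maf fell by 15.5% and Spi1 fell by 9.76%. Of all 13815 genes tested, 4.23% passed the threshold in this comparison and 2.41% did so in the lower direction. Under wild-type exosomes Csf1r fell by 14.3% and Maf fell by 10.8%, so that 2 of the 9 fell and none rose, where 4.11% of all genes passed and 2.18% did so in the lower direction. Both comparisons use the same PBS libraries. These calls held when any 1 library was left out. The median log2 fold change of the 9 genes was -0.104 under ApoE-deficient exosomes and -0.103 under wild-type exosomes. Over all genes tested it was -0.00052 and -0.0034. Without regard to sign, the medians were 0.104 and 0.103 for the 9 genes and 0.118 and 0.120 over all genes tested. With both exosome groups averaged against PBS, Csf1r, Maf and Spi1 fell, where 5.31% of all genes passed the threshold and 2.79% did so in the lower direction. Tests are edgeR quasi-likelihood tests with Benjamini-Hochberg adjustment over all genes at 0.05. Since the RNA was measured in bulk, fewer cells of a type and less RNA per cell cannot be told apart.

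**Figure D2:**
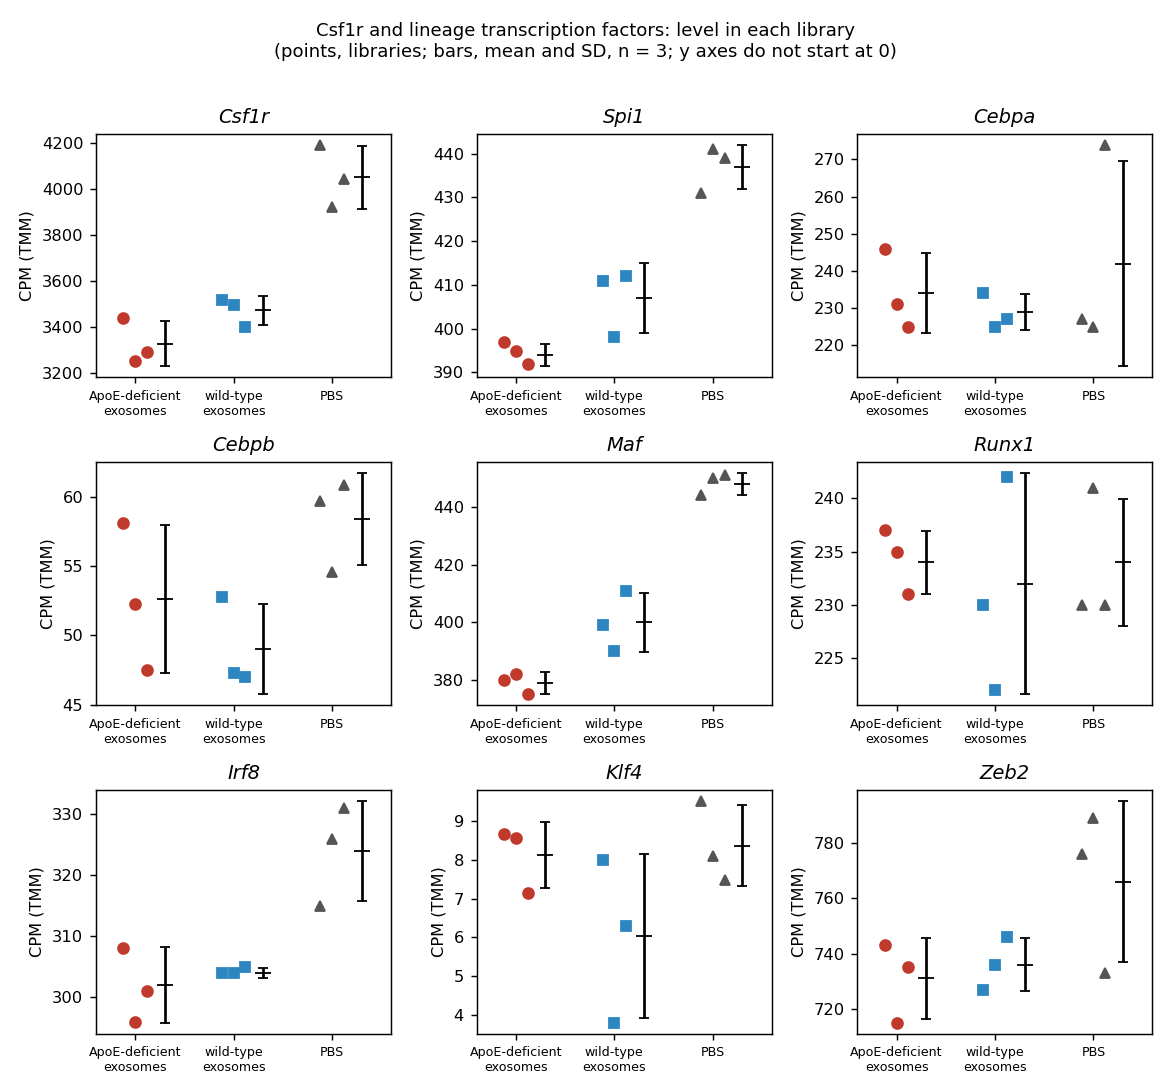
TMM-normalised CPM of each gene in every library, by group (red circles, ApoE-deficient exosomes; blue squares, wild-type exosomes; grey triangles, PBS), with mean and SD (n = 3) beside the points; y axes do not start at 0. For Csf1r, Spi1, Maf and Irf8 every exosome library lies below every PBS library, whereas Cebpa, Runx1, Klf4 and Zeb2 overlap between groups.

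Csf1r (ENSMUSG00000024621, GRCm38 chromosome 18, 61100598 to 61132149, plus strand) encodes the M-CSF receptor. Its level was 3438, 3253 and 3290 CPM under ApoE-deficient exosomes, 3517, 3497 and 3399 CPM under wild-type exosomes and 4192, 3920 and 4042 CPM in PBS. All 6 exosome libraries lay below all 3 PBS libraries, and the exosome groups overlapped each other. ApoE-deficient exosomes gave a log2 fold change of -0.28 ± 0.027 against PBS (SE; adjusted p = 2.35e-09), the gene with rank 12 by p among all tested. Wild-type exosomes gave -0.22 ± 0.027 (SE; adjusted p = 4.54e-07), and -0.21 without their replicate 3 (adjusted p = 4.09e-05). The gene had 93103 to 142688 counts per library, so counting error was small beside the spread between libraries. Over 15.1% of its exon length Csf1r overlaps exons of Hmgxb3 on the opposite strand, and whether counting used strand is not given in the sources used here. Hmgxb3 had 1.18% of the counts of Csf1r and log2 fold changes of 0.11 and -0.030 (adjusted p = 0.667 and 0.940). The summed macrophage markers, given above and mostly Lyz2, were lower in both exosome groups than in PBS beside this fall. The summed neutrophil markers, mostly Csf3r, were lowest under ApoE-deficient exosomes. The summed monocyte markers lay below PBS there but overlapped those under wild-type exosomes. No tested gene of either list passed the threshold. The part of these markers in the fall of Csf1r was not tested.

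The genes whose log2 CPM followed Csf1r most closely over the 9 libraries, among 8171 genes with at least 10 CPM, were Tlr2 with a Pearson r of 0.981, Ly86 with 0.968 and Tmem176a with 0.966. These values describe libraries that share the same group structure, and genes that differ between the groups can resemble each other for that reason alone.

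Of 28 genes for M-CSF receptor ligands and signalling, 27 were tested. Under ApoE-deficient exosomes 5 fell and none rose, and under wild-type exosomes 1 fell and 1 rose. The shares that fell were 18.5% and 3.70%, beside 2.41% and 2.18% of all genes tested. Ptpn6, the gene for the phosphatase SHP-1 that dampens receptor signalling, averaged 344 ± 2.84 CPM under ApoE-deficient exosomes, 347 ± 12.7 CPM under wild-type exosomes and 392 ± 1.80 CPM in PBS (SD, n = 3 each). It fell under both, with log2 fold changes of -0.19 ± 0.035 (SE; adjusted p = 0.000350) and -0.18 ± 0.035 (SE; adjusted p = 0.000867). Dok2, an adaptor that restrains tyrosine kinase signalling in myeloid cells, fell under ApoE-deficient exosomes to 22.0 ± 1.02 CPM, against 30.2 ± 0.370 CPM in PBS (SD, n = 3 each; log2 fold change -0.455 ± 0.10, adjusted p = 0.00302). Fgr and Lyn, genes for Src family kinases, also fell under ApoE-deficient exosomes (adjusted p = 0.0129 and 0.0394). The call of Fgr ended without replicate 2 or 3 of ApoE-deficient exosomes or replicate 1 of PBS, with adjusted p up to 0.113. The count of 5 lay between 2 and 4 when any 1 library was left out. It was 2 without replicate 2 of ApoE-deficient exosomes and 3 without replicate 1 or 3 of that group. The count of 1 that fell under wild-type exosomes was 2 without replicate 3 of PBS or without replicate 1 or 2 of wild-type exosomes. Irs2, an insulin receptor substrate, was the gene that rose under wild-type exosomes, with an adjusted p of 0.00923, and of 0.0843 without their replicate 2. Transcripts of the ligands were scarce. Csf1 had 2.01 to 4.63 CPM under ApoE-deficient exosomes, 3.26 to 4.75 under wild-type exosomes and 2.80 to 5.58 in PBS, which overlap, and Il34 had 0 to 3 counts per library. The median log2 fold change of the list was -0.061 under ApoE-deficient and -0.057 under wild-type exosomes.

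Among 9 other colony-stimulating factor and class III receptor genes, 7 were tested, and the exosome groups differed from each other on the GM-CSF receptor. Csf2ra, its ligand-binding α chain, stood at 547, 536 and 507 CPM under ApoE-deficient exosomes, 478, 456 and 459 CPM under wild-type exosomes and 508, 533 and 513 CPM in PBS. The wild-type exosome libraries lay below all others. The log2 fold change was 0.19 ± 0.034 for ApoE-deficient against wild-type exosomes (SE; adjusted p = 0.00118), -0.16 ± 0.034 for wild-type exosomes against PBS (SE; adjusted p = 0.00286) and 0.033 ± 0.034 for ApoE-deficient exosomes against PBS (SE; adjusted p = 0.804). Csf2rb, the shared signalling β chain, had 297, 297 and 299 CPM under ApoE-deficient exosomes, 317, 337 and 338 CPM under wild-type exosomes and 341, 336 and 334 CPM in PBS. It fell under ApoE-deficient exosomes against PBS, with a log2 fold change of -0.18 ± 0.036 (SE; adjusted p = 0.000980), and was the 1 gene of this list to do so, with 2 without replicate 1 of PBS. Against wild-type exosomes Csf2rb fell by 0.15 on the log2 scale (adjusted p = 0.0297) and its paralog Csf2rb2 by 0.135 (adjusted p = 0.0397). Both of those calls ended in 6 of 12 alternative settings, with adjusted p up to 0.213 for Csf2rb and 0.296 for Csf2rb2, including each setting that left out 1 ApoE-deficient exosome library. The β chain genes are near-identical in sequence, so how the counting split reads between them is uncertain. Csf3r, the G-CSF receptor, lay at 160 to 173 CPM under ApoE-deficient exosomes, 170 to 184 under wild-type exosomes and 168 to 177 in PBS, and passed no test. Kit had 1.08 to 3.25 CPM over all libraries, Flt3 0 to 9 counts and Pdgfra 0 to 13 counts.

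**Figure D3:**
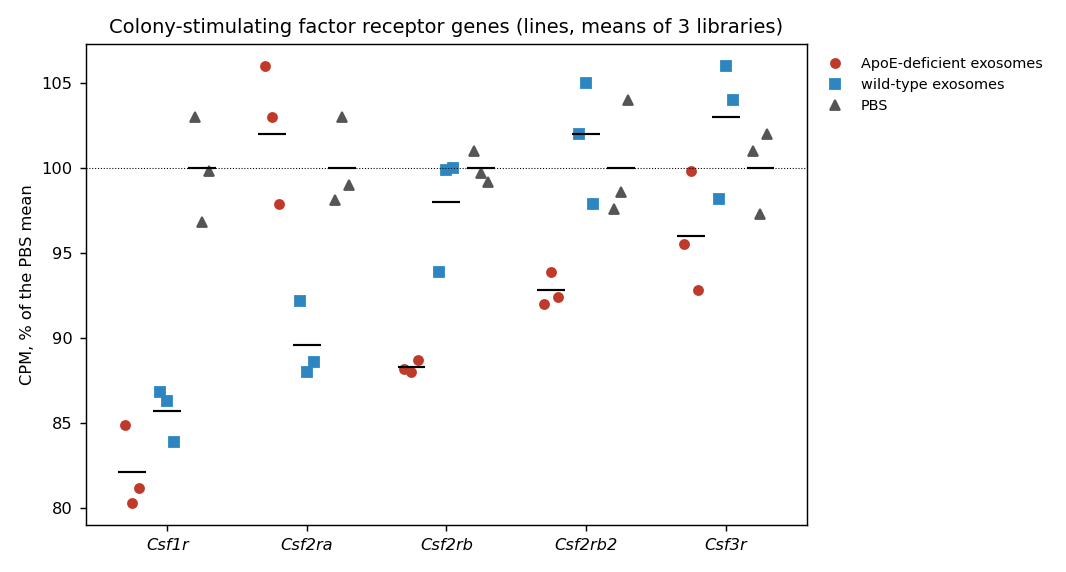
CPM of colony-stimulating factor receptor genes in each library as a percentage of the PBS mean of the same gene (lines, means of 3 libraries; dotted line, 100%). Csf1r lies at a mean of 82.1% with ApoE-deficient and 85.7% with wild-type exosomes, whereas Csf2ra is below all other libraries with wild-type exosomes and Csf2rb with ApoE-deficient exosomes.

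Spi1 (ENSMUSG00000002111, chromosome 2, 91082390 to 91115756, plus strand) encodes PU.1. It had 397, 395 and 392 CPM under ApoE-deficient exosomes, 411, 398 and 412 CPM under wild-type exosomes and 431, 441 and 439 CPM in PBS. No library of one group overlapped those of another, with ApoE-deficient exosomes lowest and PBS highest. Against PBS the log2 fold change was -0.15 ± 0.033 under ApoE-deficient exosomes (SE; adjusted p = 0.00331). Under wild-type exosomes it was -0.10 ± 0.033 (SE; adjusted p = 0.0705), which did not pass, although DESeq2 (adjusted p = 0.00951) and limma-voom (adjusted p = 0.0455) called it. The F test for any difference among the groups, which 5.28% of all genes passed, gave an adjusted p of 0.00754, and 0.0578 without replicate 2 of PBS. None of its exons overlaps another gene.

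Irf8 (ENSMUSG00000041515, chromosome 8, 120736358 to 120756694, plus strand) encodes the partner of PU.1. It had 308, 296 and 301 CPM under ApoE-deficient exosomes, 304, 304 and 305 CPM under wild-type exosomes and 315, 326 and 331 CPM in PBS. Every exosome library lay below every PBS library. The log2 fold changes of -0.104 ± 0.036 under ApoE-deficient and -0.092 ± 0.036 under wild-type exosomes did not pass (SE; adjusted p = 0.107 and 0.175), although DESeq2 called the first at an adjusted p of 0.0285. With both exosome groups averaged, the value was -0.098 ± 0.031 (SE; adjusted p = 0.0561), which DESeq2 (adjusted p = 0.0121), limma-voom (0.0424) and a replicate block (0.0420) brought past the threshold, and the adjusted p reached 0.213 without replicate 3 of PBS. Groups whose libraries do not overlap are common here. In the lower direction they made up 9.24% of all genes for ApoE-deficient exosomes against PBS, where 4 of the 9 did so (Csf1r, Spi1, Maf and Irf8), and 8.87% for wild-type exosomes against PBS, where 5 did so (the same genes and Cebpb).

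Cebpa (ENSMUSG00000034957, chromosome 7, 35119293 to 35121928, plus strand) had 246, 231 and 225 CPM under ApoE-deficient exosomes, 234, 225 and 227 CPM under wild-type exosomes and 227, 225 and 274 CPM in PBS. The groups overlapped, and replicate 3 of PBS stood alone above the rest. Log2 fold changes against PBS were -0.049 ± 0.053 and -0.082 ± 0.053 (SE; adjusted p = 0.821 and 0.550), and without that PBS library they were 0.050 and 0.016. Cebpb (ENSMUSG00000056501, chromosome 2, 167688915 to 167690418, plus strand) had 58.1, 52.3 and 47.5 CPM under ApoE-deficient exosomes, 52.8, 47.3 and 47.0 CPM under wild-type exosomes and 59.7, 54.6 and 60.9 CPM in PBS. The wild-type exosome libraries lay below PBS, and the ApoE-deficient exosome libraries reached into the PBS range. The log2 fold change was -0.15 ± 0.079 under ApoE-deficient exosomes (SE; adjusted p = 0.430) and -0.25 ± 0.079 under wild-type exosomes (SE; adjusted p = 0.0634). The second passed in 4 of 12 alternative settings, which were DESeq2 (adjusted p = 0.0431), no filter on low counts (0.0370), a replicate block (0.0377) and leaving out replicate 1 of wild-type exosomes (0.0370), and its adjusted p reached 0.234 in the others. Cebpb shares 20.7% of its exon length with Tmem189 on the opposite strand, whose counts were 290% of its own. Tmem189 rose under ApoE-deficient (log2 fold change 0.20, adjusted p = 0.00407) and wild-type exosomes (0.21, adjusted p = 0.00263), the direction opposite to the values of Cebpb, and the part of shared reads in them was not tested.

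Runx1 (ENSMUSG00000022952, chromosome 16, 92601466 to 92826149, minus strand), a core factor of definitive blood formation, had 237, 235 and 231 CPM under ApoE-deficient exosomes, 230, 222 and 242 CPM under wild-type exosomes and 230, 241 and 230 CPM in PBS. All 3 groups overlapped. Against PBS the log2 fold change was 0.0027 under ApoE-deficient exosomes, with a 95% interval of -0.079 to 0.084, and -0.014 under wild-type exosomes, with an interval of -0.096 to 0.067. The values of Csf1r, Maf, Spi1 and Cebpb in the same comparisons lie outside these intervals. So do those of Irf8 under ApoE-deficient and of Klf4 under wild-type exosomes. Whether any of these genes differs from Runx1 was not tested.

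Maf (ENSMUSG00000055435, chromosome 8, 115682942 to 115707794, minus strand) had 380, 382 and 375 CPM under ApoE-deficient exosomes, 399, 390 and 411 CPM under wild-type exosomes and 444, 450 and 451 CPM in PBS. The 3 groups did not overlap, in the same order as for Spi1. The log2 fold change against PBS was -0.24 ± 0.033 under ApoE-deficient exosomes (SE; adjusted p = 2.95e-06) and -0.165 ± 0.033 under wild-type exosomes (SE; adjusted p = 0.00125). Without replicate 3 of wild-type exosomes the second was -0.18 (adjusted p = 0.00213). The gene most like Maf over the 9 libraries was Spi1, with a Pearson r of 0.991, followed by Cd52 with 0.978 and Neurl3 with 0.976, again over libraries that share the group structure.

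Zeb2 (ENSMUSG00000026872, chromosome 2, 44983632 to 45117395, minus strand) had 743, 715 and 735 CPM under ApoE-deficient exosomes, 727, 736 and 746 CPM under wild-type exosomes and 776, 789 and 733 CPM in PBS. Replicate 3 of PBS fell within the exosome range and the others lay above it. The log2 fold changes of -0.067 ± 0.031 and -0.057 ± 0.031 did not pass (SE; adjusted p = 0.341 and 0.444). Klf4 (ENSMUSG00000003032, chromosome 4, 55527143 to 55532466, minus strand) had 8.67, 8.56 and 7.15 CPM under ApoE-deficient exosomes, 8.01, 3.80 and 6.30 CPM under wild-type exosomes and 9.52, 8.11 and 7.48 CPM in PBS. Replicate 2 of wild-type exosomes was the lowest, and the groups overlapped. With 116 to 310 counts per library its interval was the widest of the 9, from -0.46 to 0.38 under ApoE-deficient exosomes and from -0.89 to -0.044 under wild-type exosomes on the log2 scale (adjusted p = 0.975 and 0.278). The value under wild-type exosomes was -0.468, with -0.221 without their replicate 2 and -0.728 without their replicate 1.

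The exosomes differ in the ApoE genotype of their donors, and no source used here says whether replicates received separate preparations. Genotype and preparation may therefore not be separable in this comparison. Between the exosomes no member passed the edgeR test, where 0.695% of all genes did. DESeq2 and limma-voom also called none. At an unadjusted p under 0.05 there were 3 of the 9, where 8.15% of all genes reached it. Csf1r gave a log2 fold change of -0.061 for ApoE-deficient against wild-type exosomes, with a 95% interval of -0.116 to -0.0063 (unadjusted p = 0.0299, adjusted p = 0.505). Maf gave -0.078 with an interval of -0.145 to -0.010 (unadjusted p = 0.0251, adjusted p = 0.478). Klf4 gave 0.43 with an interval of 0.0030 to 0.85 (unadjusted p = 0.0485, adjusted p = 0.606), and 0.183 without replicate 2 and 0.684 without replicate 1 of wild-type exosomes. Libraries did not overlap for Spi1 and Maf, both lower with ApoE-deficient exosomes, as for 7.01% of all genes in that direction. The intervals of the others were -0.112 to 0.021 for Spi1, -0.0745 to 0.141 for Cebpa, -0.058 to 0.26 for Cebpb, -0.065 to 0.098 for Runx1, -0.084 to 0.060 for Irf8 and -0.073 to 0.054 for Zeb2.

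**Figure D4:**
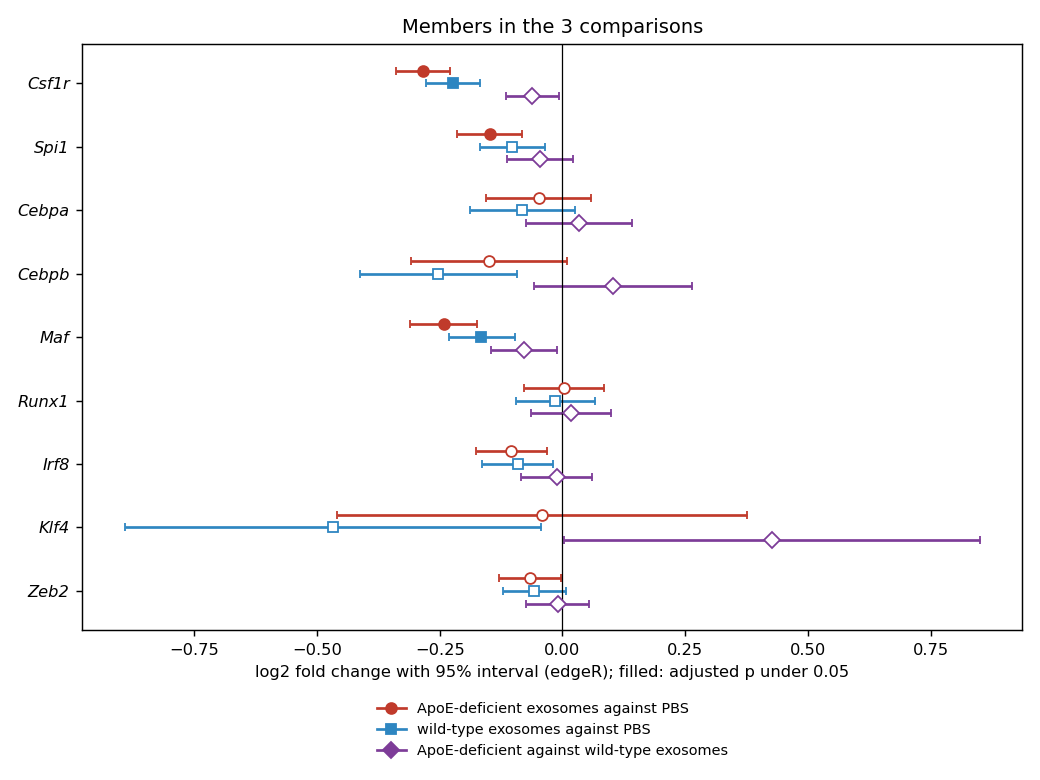
Log2 fold change with 95% interval of the 9 genes for ApoE-deficient exosomes against PBS (red circles), wild-type exosomes against PBS (blue squares) and ApoE-deficient against wild-type exosomes (purple diamonds); filled symbols have an edgeR adjusted p under 0.05. The filled symbols are those of Csf1r and Maf in both PBS comparisons and of Spi1 for ApoE-deficient exosomes, and the widest intervals belong to Klf4.

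Relatives of the lineage factors were counted over 40 genes, of which 36 were tested. Under ApoE-deficient exosomes 5 fell and none rose, under wild-type exosomes 2 fell and none rose, and between the exosomes 1 fell. The shares that fell were 13.9%, 5.56% and 2.78%, beside 2.41%, 2.18% and 0.413% of all genes tested. Irf7, the interferon response factor, and Klf3, a Krüppel-like repressor, were among those that fell under ApoE-deficient exosomes. Irf7 had 35.3, 30.1 and 44.7 CPM under ApoE-deficient exosomes, 51.2, 47.7 and 57.1 CPM under wild-type exosomes and 47.2, 61.1 and 56.9 CPM in PBS. The ApoE-deficient exosome libraries were the lowest, and the other groups overlapped. Its log2 fold change was -0.58 ± 0.11 against PBS (SE; adjusted p = 0.00214) and -0.50 ± 0.11 against wild-type exosomes (SE; adjusted p = 0.0393). The second call ended without replicate 1 or 2 of ApoE-deficient exosomes or without any 1 wild-type exosome library, with adjusted p up to 0.344. Klf3 fell by 0.248 ± 0.053 on the log2 scale against PBS (SE; adjusted p = 0.00223). The count of 5 was 3 without replicate 2 of ApoE-deficient exosomes or without replicate 2 or 3 of PBS. The count of 2 under wild-type exosomes, made up of Irf2 and Klf3, was 0 without replicate 2 of PBS. It was 1 when PBS lost its replicate 1, and also when the wild-type exosome group lost either its replicate 1 or its replicate 2. Dropping PBS replicate 1 ended both named calls, as did dropping wild-type exosome replicate 2. The 1 gene counted in those cases was therefore another. In 12 alternative settings the Irf2 call held in 8 (adjusted p up to 0.177) and the Klf3 call in 5 (up to 0.200). The median log2 fold change of the list was -0.090 under ApoE-deficient and -0.080 under wild-type exosomes.

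Other regulators of myeloid differentiation, 36 tested of 39, moved in both directions. Under ApoE-deficient exosomes 3 rose and 5 fell, under wild-type exosomes 3 rose and 3 fell, and between the exosomes none passed. The shares called against PBS were 22.2% and 16.7%, beside 4.23% and 4.11% of all genes tested. Bhlhe41, a repressor that acts in macrophage self-renewal, rose to 185 ± 7.11 CPM under ApoE-deficient exosomes and 167 ± 8.47 CPM under wild-type exosomes, against 141 ± 3.72 CPM in PBS (SD, n = 3 each). Its log2 fold changes were 0.39 ± 0.046 (SE; adjusted p = 2.71e-07) and 0.24 ± 0.047 (SE; adjusted p = 0.000699). A predicted gene, Gm43909, overlaps 19% of its exon length. Its paralog Bhlhe40 rose under ApoE-deficient exosomes to 30.9 ± 1.94 CPM, against 22.3 ± 1.25 CPM in PBS (SD, n = 3 each; adjusted p = 0.00206). Mef2c, a MADS-box factor of myeloid and lymphoid cells, fell under ApoE-deficient exosomes to 84.8 ± 5.35 CPM, against 109 ± 7.51 CPM in PBS (SD, n = 3 each; adjusted p = 0.000103). Under wild-type exosomes Tcf4, an E protein, fell by 0.225 ± 0.047 and Mitf, a factor of lysosomal and osteoclast genes, by 0.24 ± 0.050 on the log2 scale (SE; adjusted p = 0.00182 and 0.00189). Id2, which antagonises E proteins, rose by 0.17 ± 0.041 there (SE; adjusted p = 0.00921). The count of 5 lay between 2 and 4 when 1 library was left out, with 2 without replicate 3 of ApoE-deficient exosomes or without replicate 1 or 2 of PBS, and 3 without replicate 1 or 2 of ApoE-deficient exosomes. The count of 3 that rose was 2 without any 1 ApoE-deficient exosome library or without replicate 1 of PBS.

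**Figure D5:**
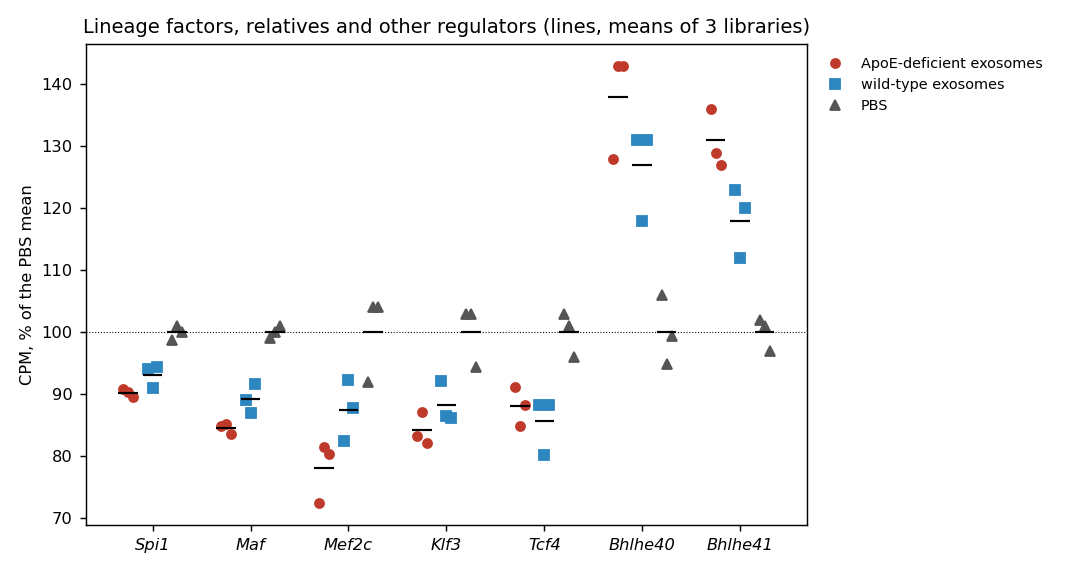
CPM of lineage factors, relatives and other regulators in each library as a percentage of the PBS mean of the same gene (lines, means of 3 libraries). Spi1 and Maf lie at means of 90.2% and 84.5% with ApoE-deficient exosomes and 93.1% and 89.2% with wild-type exosomes, and Bhlhe40 and Bhlhe41 lie above 100% in all exosome libraries.

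Surface and effector genes of macrophages, many of them known targets of PU.1, were lower more often than higher. Of 30 tested, 13 fell and 1 rose under ApoE-deficient exosomes, 10 fell and 1 rose under wild-type exosomes, and 5 fell between the exosomes. The counts that fell were 12 to 13, 8 to 9 and 4 to 5 when 1 library was left out. This list holds all 9 macrophage markers counted earlier, so the counts of the lists share genes. The shares that fell were 43.3%, 33.3% and 16.7%, beside 2.41%, 2.18% and 0.413% of all genes tested in the same comparisons. The list median was -0.12 and -0.072 on the log2 scale against PBS. Cx3cr1, the fractalkine receptor, had 194 ± 1.77 CPM under ApoE-deficient exosomes, 199 ± 3.32 CPM under wild-type exosomes and 306 ± 10.2 CPM in PBS (SD, n = 3 each), and fell by 0.655 and 0.62 on the log2 scale (adjusted p = 2.76e-14 and 1.46e-13). Cd14, the lipopolysaccharide co-receptor, fell by 0.37 and 0.36 (adjusted p = 5.00e-08 and 1.10e-07). C1qa, a chain of complement C1q, averaged 402 ± 6.86 CPM under ApoE-deficient exosomes, 457 ± 6.37 CPM under wild-type exosomes and 555 ± 7.44 CPM in PBS (SD, n = 3 each). It fell in both PBS comparisons and by 0.18 between the exosomes (adjusted p = 0.000877). Fcgr1, the high-affinity IgG receptor, fell by 0.395 between the exosomes (adjusted p = 9.58e-06). Unlike these genes, no member passed the test between the exosomes; whether the members and this list differ in that was not tested. The genes that rose, Cd36 under ApoE-deficient and Cd68 under wild-type exosomes, were named after their values were seen. The count of 1 was 0 for ApoE-deficient exosomes without their replicate 2 or 3 or without any 1 PBS library, and 0 for wild-type exosomes without their replicate 3 or without replicate 1 or 2 of PBS.

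Of 12 cell cycle genes downstream of M-CSF, all tested, 1 rose and 1 fell under ApoE-deficient exosomes (16.7%, beside 4.23% of all genes in either direction), 1 rose under wild-type exosomes (8.33%, beside 4.11%) and none passed between the exosomes (0.695% of all genes). Pcna, the DNA polymerase clamp, averaged 134 ± 4.48 CPM under ApoE-deficient exosomes, 140 ± 8.18 CPM under wild-type exosomes and 112 ± 3.28 CPM in PBS (SD, n = 3 each), and rose by 0.27 and 0.325 on the log2 scale (adjusted p = 0.000457 and 3.54e-05). Cdkn1a, the gene for the cell cycle inhibitor p21, fell under ApoE-deficient exosomes to 80.4 ± 4.54 CPM, against 99.7 ± 3.34 CPM in PBS (SD, n = 3 each; adjusted p = 0.00154). The count that fell was 2 without replicate 3 of PBS, and the count that rose under wild-type exosomes was 2 without replicate 2 or 3 of PBS or without replicate 1 of wild-type exosomes.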

How the data were processed

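RNA was measured by mRNA sequencing in 9 libraries of mouse BMDM, 3 per group. The authors deposited a table of raw counts per Ensembl gene. STAR 2.7.5c and the build GRCm38 are named per the submitters' processing notes; which counter, annotation release and strand setting were used is not given in the sources used here. Gene symbols, coordinates and exon lengths came from GENCODE M21 of GRCm38, and all 55536 IDs matched.

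Counts were fitted with edgeR 4.0.16 in R 4.3.3 (filterByExpr at a minimum count of 10, 13815 genes, TMM factors, robust quasi-likelihood, group as the only term, all 9 libraries), with Benjamini-Hochberg adjustment over all genes at 0.05. Every adjusted p is from this fit unless another tool is named, and SEs of log2 fold changes derive from the F statistic. CPM values carry TMM factors, and RPKM values divide them by the union of exons. Depth was 28581306 to 35929596 counts per library. Every pair of libraries differed by more than sampling noise, with a chi-square per gene of 6.76 to 10.2 within groups and 7.7 to 18.3 between them, so all were kept. With 3 libraries against 3 an exact permutation test has a smallest p of 0.1 and was not used.

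The members, the gene lists and the rule for named genes were chosen with earlier results of these data known. All 9 members are described, and of each other list at most 4 genes of lowest p per comparison were named, plus those at or near 0. Some listed genes are counted but not reported here by name. Likeness is Pearson's r of log2 CPM (prior count 2). Alternatives were RLE size factors, no filter, DESeq2 1.42.0, limma-voom (limma 3.58.1), only the libraries compared, a replicate block and leaving out each library. The fits were also run on simulated data, in a check that was changed after its first version failed its criterion for power. In the changed check DESeq2 made more false calls than its threshold allows, so calls by DESeq2 alone carry less weight. How closely edgeR kept to its own threshold there is not reported here, so the check does not establish the error rate of the edgeR calls.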

Additional observations from a re-analysis of the deposited data

Results flagged for a closer look

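The exosome groups differed from each other, by the direct edgeR test of ApoE-deficient against wild-type exosomes, in 9 genes of the lists around the M-CSF receptor. They made up 16.7% of the surface and effector genes tested, 42.9% of the other receptor genes and 2.78% of the relatives. No gene passed among the 27 M-CSF signalling, 36 other regulator and 12 cell cycle genes tested. Of all genes tested, 0.695% passed. None of the 9 genes followed here did, which at that share does not set them apart. Log2 fold changes were -0.395 for Fcgr1, -0.248 for Siglec1, -0.184 for C1qa and -0.182 for C1qc, all lower with ApoE-deficient exosomes and past the threshold in all 12 alternative settings. Csf2ra was higher with ApoE-deficient exosomes at 0.191, again in all 12 settings. C1qb, named after its values were seen, was lower at -0.148 (adjusted p = 0.00380), a call that ended without replicate 2 of either exosome group (adjusted p up to 0.0922). The calls of Csf2rb at -0.150, Csf2rb2 at -0.135 and Irf7 at -0.499 ended in some of the settings, as described above.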

How the results depend on the processing

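Csf1r and Maf passed the threshold against PBS with either exosome in all 12 alternative settings of each comparison, as did Spi1 with ApoE-deficient exosomes. The largest change was in the count for wild-type exosomes against PBS, which was 2 of 9 and became 4 under DESeq2 and 4 with a replicate block, adding Spi1 and Cebpb. Deviations of same-numbered libraries had correlations of -0.035 to 0.040, beside -0.048 to 0.039 for differently numbered ones. With 3 libraries per group these values cannot settle whether the numbers pair the samples. The block left the members called for ApoE-deficient exosomes against PBS at 3 and between the exosomes at 0. Over all genes the count between the exosomes was 96, with 157 under DESeq2 and 144 with the block, and 52 to 101 when 1 library was left out. It was 52 without replicate 1 and 56 without replicate 2 of ApoE-deficient exosomes, and 59 without replicate 2 and 56 without replicate 3 of wild-type exosomes.

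Directions of genes that passed no test turned when 1 library was left out. Cebpa ranged from -0.095 to 0.050 for ApoE-deficient exosomes against PBS, -0.129 to 0.016 for wild-type exosomes against PBS, -0.0070 to 0.057 between the exosomes and -0.112 to 0.033 for both averaged. Runx1 ranged from -0.0089 to 0.026, -0.046 to 0.018, -0.0125 to 0.052 and -0.020 to 0.018 in the same order. Between the exosomes Irf8 ranged from -0.031 to 0.0016 and Zeb2 from -0.0245 to 0.0070, and Klf4 from -0.117 to 0.061 for ApoE-deficient exosomes against PBS. The cause was not tested. The low counts of Klf4 limit its precision.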
